A study of Rattus norvegicus with 28 samples.

Results

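Dual-specificity phosphatases and Sprouty and Spred proteins are feedback inhibitors of mitogen-activated protein kinase (MAPK) signalling, and the genes described here are Dusp1, Dusp2, Dusp4, Dusp5, Dusp6, Dusp10, Dusp16, Spry1, Spry2 and Spred1, chosen by symbol. Counts were held for 9 of these 10 genes, out of 28459 symbols in the count tables, and Dusp1 was not analysed here. Both cell types were cultured from Wistar rat cortex of postnatal day 1 in flasks for 10 days, after which microglia, the resident macrophages of the brain, were shaken off and enriched with CD11b/c magnetic beads. Microglia were stimulated 1 day and astrocytes, the main supporting glia of the cortex, 3 days after isolation, in medium with 10% FCS. The tested agents were HERV-W ENV, a recombinant envelope protein of a human endogenous retrovirus, at 1 µg/ml with buffer as its vehicle, and LPS, a bacterial cell wall component, at 100 ng/ml with H2O as its vehicle. The 8 groups were therefore ENV, buffer, LPS and H2O in microglia, with 3 libraries each, and ENV, buffer, LPS and H2O in astrocytes, with 4 libraries each. All groups shared the rat strain, the serum and the flask culture, in which both cell types first grew together. How long the stimulation lasted is not stated in the sources used.

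In a MAPK cascade, a receptor at the membrane starts a chain of kinases that ends in ERK, JNK or p38, and these kinases are switched on by paired phosphorylation of a threonine and a tyrosine. Dual-specificity phosphatases remove both phosphates, and many of their genes are themselves induced by MAPK activity, which closes a negative feedback loop. Sprouty and Spred proteins act further upstream, between receptor tyrosine kinases and the kinase RAF. In macrophages and microglia, receptors for bacterial products such as TLR4 feed into all of the ERK, JNK and p38 branches.

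Microglial libraries held 26513999 to 42724111 counts and astrocyte libraries 23742228 to 35326938, and the upper limit set by a count of 0 was 0.0702 to 0.126 per 1e+06 counts of a library. Levels below are CPM on library totals scaled by TMM within each cell type and agent set, so they are close to these limits in scale but not equal to it. Of 18 microglial markers, such as Aif1 and Csf1r, all were detected in every group, and their summed level was 10300 to 17600 CPM per library in microglia and 180 to 1060 CPM in astrocytes. Of 16 astrocyte markers, such as Gfap and Aqp4, 1 (Gjb6) was at 0 in all microglial groups, and the summed level was 1330 to 5720 CPM in microglia and 3590 to 15800 CPM in astrocytes. The third replicates of LPS and H2O microglia stood apart from the others of their groups in markers of the oligodendrocyte lineage, with 39.3 CPM against 6.06 and 6.24 CPM under LPS, and 157 CPM against 15.5 and 15.6 CPM under H2O. Neuronal markers did the same, with 15.3 CPM against 1.96 and 1.18 CPM under LPS and 17.4 CPM against 1.46 and 1.39 CPM under H2O.

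Summed marker levels also shifted between treated and vehicle libraries, in some lists with overlapping groups. Summed astrocyte markers were 3310, 2930 and 3580 CPM in ENV microglia against 1480, 1330 and 1700 CPM in buffer microglia, and 5720, 3350 and 1880 CPM in LPS microglia against 1950, 2290 and 1760 CPM in H2O microglia, where the groups overlapped. Of these, 1 was called higher and 1 lower of 13 tested with ENV, and 0 of 7 with LPS. Summed endothelial markers were 208, 137 and 228 CPM in ENV microglia against 69.6, 67.5 and 78.9 CPM in buffer microglia, with 3 of 7 tested called higher, and 225, 273 and 166 CPM in LPS microglia against 95.1, 116 and 77.2 CPM in H2O microglia, with 1 of 7 called higher. In astrocytes the summed astrocyte markers were 5910, 6800, 8710 and 10200 CPM with ENV against 10300, 11200, 11100 and 15800 CPM with buffer, where the groups did not overlap, and 3590, 3930, 9090 and 10400 CPM with LPS against 7380, 8130, 11100 and 15800 CPM with H2O, where they overlapped. Of 16 tested with ENV, 1 was called higher and 6 lower, and of 15 with LPS none was called. Neuronal markers were 335, 391, 475 and 278 CPM with ENV against 668, 590, 820 and 814 CPM with buffer, and 314, 288, 483 and 320 CPM with LPS against 458, 470, 822 and 828 CPM with H2O, where they overlapped. Of 7 neuronal markers tested with ENV, 1 was called higher and 2 lower, and of 8 with LPS 1 was called higher and none lower. The part of these shifts in the changes below was not tested.

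The promoters shown first are the 4 that hold a match to any of the 5 motifs searched. They belong to Dusp2, Dusp16 and Spry2, whose transcripts were called, and to Dusp5, which was not. The windows of Spry1 and Spred1, which were also called, held none of the motifs and are not shown, nor are those of Dusp6 and Dusp10. Each is the run of 250 bases before the annotated start in the RefSeq table of build GRCr8. Dusp2 lies at chr3:135009386-135009635 on the plus strand, Dusp16 at chr4:169361509-169361758 on the minus strand, Spry2 at chr15:89111927-89112176 on the minus strand and Dusp5 at chr1:262543524-262543773 on the plus strand. Capitals mark the core of a cyclic AMP response element (TGACG, or CGTCA on the other strand) and, in Dusp5 alone, also the CArG box bound by serum response factor.
Dusp2: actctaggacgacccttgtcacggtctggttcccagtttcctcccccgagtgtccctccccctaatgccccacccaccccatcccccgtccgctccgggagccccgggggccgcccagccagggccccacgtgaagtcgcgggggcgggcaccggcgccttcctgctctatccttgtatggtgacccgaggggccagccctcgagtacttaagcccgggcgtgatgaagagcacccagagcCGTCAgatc
Dusp16: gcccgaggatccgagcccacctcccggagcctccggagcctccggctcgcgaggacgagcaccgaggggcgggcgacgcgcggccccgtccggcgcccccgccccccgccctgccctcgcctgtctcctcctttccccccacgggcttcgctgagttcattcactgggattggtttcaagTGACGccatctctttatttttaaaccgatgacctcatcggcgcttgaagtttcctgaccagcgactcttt
Spry2: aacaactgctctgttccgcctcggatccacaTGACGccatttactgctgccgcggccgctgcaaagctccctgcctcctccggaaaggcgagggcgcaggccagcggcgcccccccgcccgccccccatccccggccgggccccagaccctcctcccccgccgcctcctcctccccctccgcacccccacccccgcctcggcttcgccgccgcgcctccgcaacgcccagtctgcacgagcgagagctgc
Dusp5: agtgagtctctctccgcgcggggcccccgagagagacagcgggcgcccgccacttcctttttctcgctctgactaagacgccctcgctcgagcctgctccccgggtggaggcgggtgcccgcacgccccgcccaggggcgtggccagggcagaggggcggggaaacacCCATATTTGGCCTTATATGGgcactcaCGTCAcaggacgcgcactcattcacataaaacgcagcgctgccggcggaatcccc
Of the 8 genes with an entry, 4 held this core, namely these 4, in 4 of 9 windows, against 18.2% of 33469 promoter windows of the same length. With so few windows this does not set the genes apart. In Dusp2 the core began 9 bases before the start, in Dusp16 70 bases, in Spry2 219 bases and in Dusp5 55 bases. The 2 CArG boxes of Dusp5 began 82 and 72 bases before the start and ran into each other without a gap, and 1.5% of all windows held a CArG box. None of the 8 genes held an AP-1 site (TGANTCA, 6.34% of all windows), an NF-kB consensus (6.33%) or an interferon-stimulated response element core (3.41%), each searched on both strands. Spry2 has a second listed start, whose window held none of the 5 motifs. These matches describe letters in a window and say nothing of binding.

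Dusp2 was called higher in microglia with each agent. It was also called higher in astrocytes with each agent, but there it passed the filter on low counts through its treated libraries and had to differ to be tested, so those calls carry little weight. No other of the 9 genes was called in all 4 treated comparisons. In microglia with ENV, 3 of 9 genes were called, Dusp2 higher and Spry2 and Spred1 lower, where 30.9% of the 12844 genes tested were called, 16.2% higher and 14.7% lower. In microglia with LPS, 4 of 9 were called, Dusp2 and Dusp16 higher and Spry2 and Spred1 lower, against 29.8% of 12229 genes, 16.0% higher and 13.8% lower. In astrocytes with ENV, 3 of 9 were called, Dusp2 and Dusp16 higher and Spry1 lower, against 17.9% of 14941 genes, 9.52% higher and 8.35% lower. In astrocytes with LPS, 1 of 9 was called, Dusp2, against 5.34% of 14710 genes, 2.64% higher and 2.69% lower. With 9 genes, of which Dusp2 in astrocytes adds little, counts of 1 to 4 called lie near these background shares and do not set the genes apart as a group. Calls are at an adjusted p under 0.05 in edgeR's quasi-likelihood test with Benjamini-Hochberg adjustment over all genes tested, which also gives every adjusted p below, and changes are log2 with their standard error.

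**Figure D1:**
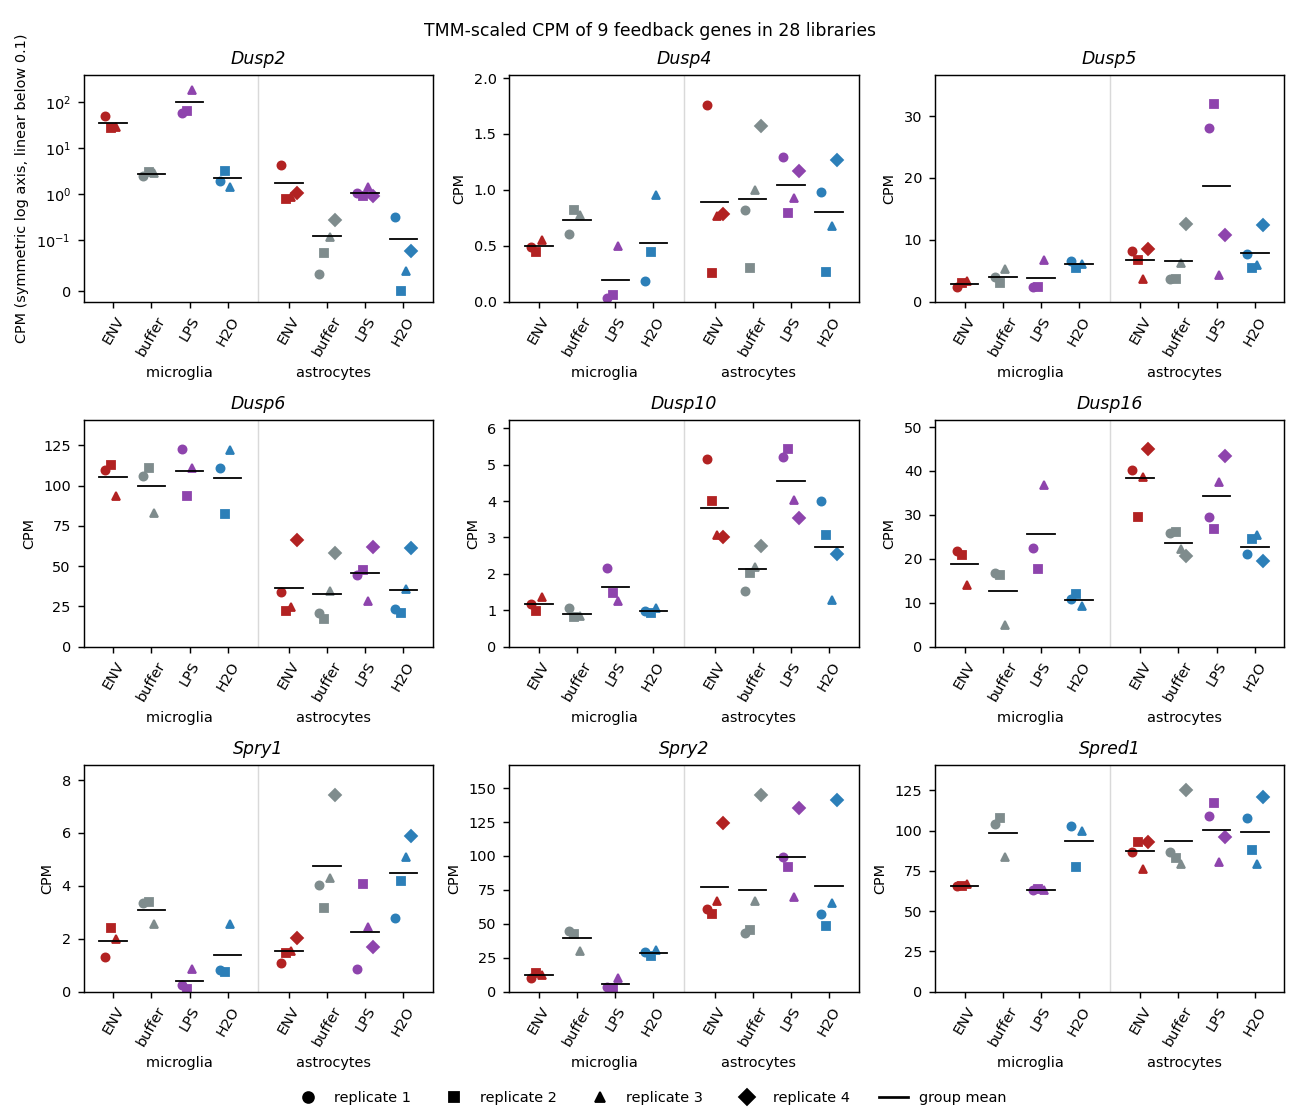
Level of each gene in every library (y axis, CPM, on a symmetric log axis for Dusp2 and linear axes from 0 for the others) by group (x axis), with 1 point per library, shaped by replicate, and a line at the group mean. Dusp2 lies at 27.4 CPM or more in every treated microglial library and at 3.21 CPM or less in every vehicle one, and Spry2 is lower in all 6 treated microglial libraries than in all vehicle ones while its astrocyte groups overlap.

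Dusp2 encodes a nuclear phosphatase, also called PAC-1, that is induced in activated leukocytes. In ENV microglia it had 49.1, 27.4 and 28.7 CPM, against 2.46, 3.11 and 2.84 CPM in buffer microglia. In LPS microglia it had 58.5, 63 and 180 CPM, against 1.95, 3.21 and 1.45 CPM in H2O microglia. All treated libraries lay above all vehicle libraries in both sets, with the third LPS replicate the highest. The log2 change was 3.64 ± 0.28 with ENV (adjusted p = 0.00032), a 12.5-fold rise, and 5.51 ± 0.63 with LPS (adjusted p = 0.00331). Without the third replicates of LPS and H2O the LPS change was 4.55 (adjusted p = 0.000753).

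In astrocytes Dusp2 was near the limit of detection with either vehicle. ENV astrocytes had 4.41, 0.788, 0.862 and 1.06 CPM, against 0.0342, 0.0747, 0.115 and 0.27 CPM in buffer astrocytes, where these levels stood for 1 to 10 counts. LPS astrocytes had 1.08, 0.907, 1.44 and 0.916 CPM, against 0.314, 0, 0.0399 and 0.0793 CPM in H2O astrocytes, that is 0 to 9 counts. The treated and vehicle libraries did not overlap in either set, and the first ENV replicate was far above the other ENV libraries. The fitted changes were 3.74 ± 0.81 with ENV (adjusted p = 0.0168) and 3.23 ± 0.74 with LPS (adjusted p = 0.0449). With no filter on low counts the LPS change was not called (adjusted p = 0.0556). The ENV change was 2.77 (adjusted p = 0.0232) without the first ENV replicate, 4.51 (adjusted p = 0.0189) without the fourth buffer replicate and not called without the third (3.70, adjusted p = 0.0572). The LPS call was lost when any of 7 of the 8 libraries was left out, with adjusted p-values of 0.0684 to 0.146, and without the first H2O replicate the change was 4.62 (adjusted p = 0.024). Summed microglial markers were 632, 180, 472 and 714 CPM in ENV astrocytes against 1060, 261, 662 and 976 CPM in buffer astrocytes. They were 219, 192, 459 and 668 CPM in LPS astrocytes against 432, 392, 700 and 995 CPM in H2O astrocytes. Of these 18 markers none was called higher and 3 were called lower with ENV, and none was called with LPS. In bulk libraries, fewer cells of a type and less RNA per cell cannot be told apart. Dusp2 averaged 35.1 CPM in ENV microglia and 100 CPM in LPS microglia, and the part of microglia in the astrocyte values was not tested.

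Dusp4 and Dusp5 encode nuclear phosphatases that act on ERK and are induced by growth factors in many cell types. Neither was called in any treated comparison. Dusp4 was scarce everywhere, with 0.443 to 0.555 CPM in ENV microglia against 0.605 to 0.816 CPM in buffer microglia, where the groups did not overlap (log2 change -0.56 ± 0.31, adjusted p = 0.207). In LPS microglia Dusp4 had 0.0293, 0.0562 and 0.494 CPM, against 0.185, 0.44 and 0.957 CPM in H2O microglia, lower in each of 3 pairs but with overlapping groups (adjusted p = 0.356). The third replicate was the highest of both groups, and without the third LPS replicate the change was -3.53 (adjusted p = 0.0467). The first and second LPS libraries held 1 and 2 counts. In that fit the gene passed the filter on low counts through its H2O libraries, so the call carries little weight. In astrocytes Dusp4 ranged from 0.252 to 1.76 CPM with ENV against 0.299 to 1.57 CPM with buffer, and from 0.793 to 1.29 CPM with LPS against 0.266 to 1.27 CPM with H2O.

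Dusp5 had 2.35, 2.93 and 3.37 CPM in ENV microglia, against 3.95, 3.01 and 5.2 CPM in buffer microglia (log2 change -0.49, adjusted p = 0.218). In LPS microglia it had 2.34, 2.39 and 6.75 CPM, against 6.51, 5.5 and 6.15 CPM in H2O microglia. The first and second LPS libraries lay below all H2O libraries and the third above them all. The change was -0.66 with all libraries (adjusted p = 0.311) and -1.35 without the third replicates of both groups (adjusted p = 0.0109), or without the third LPS replicate alone (adjusted p = 0.00964), so that 1 library decided whether Dusp5 was called. In LPS astrocytes Dusp5 was high in the first and second replicates, at 28.1 and 31.9 CPM, and not in the others, at 4.23 and 10.8 CPM, against 7.74, 5.47, 5.91 and 12.4 CPM in H2O astrocytes. The LPS change in astrocytes was 1.25 ± 0.60 and was not called (adjusted p = 0.281). With ENV the astrocyte libraries had 3.65 to 8.45 CPM, against 3.63 to 12.6 CPM with buffer.

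Dusp6 encodes the cytoplasmic phosphatase that acts on ERK, also called MKP-3, and its transcript is widely used as a readout of ERK activity. In microglia it differed little: 110, 113 and 93.4 CPM with ENV against 106, 111 and 83.2 CPM with buffer, and 123, 93.3 and 111 CPM with LPS against 111, 82.3 and 122 CPM with H2O. The log2 changes were 0.08 ± 0.15 (adjusted p = 0.725) and 0.05 ± 0.19 (adjusted p = 0.851), and both turned negative, at -0.13 and -0.26, with library totals alone. In astrocytes the replicates differed more than the treatments, with 22 to 66.1 CPM under ENV against 17.3 to 58.4 CPM under buffer, and 28.1 to 62.1 CPM under LPS against 20.6 to 61.4 CPM under H2O. In all 4 astrocyte groups the fourth replicate was the highest. Within pairs, LPS over H2O was 1.9 and 2.3 in the first and second replicates and 0.788 and 1.01 in the other pairs, the same split as for Dusp5, at 3.63 and 5.83 against 0.716 and 0.872. Summed astrocyte markers, as levels and not ratios, were 3590 and 3930 CPM in the first and second LPS replicates and 9090 and 10400 CPM in the others. The H2O libraries split likewise, at 7380 and 8130 CPM against 11100 and 15800 CPM. The part of this in the Dusp5, Dusp6 and Spry2 values was not tested.

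Dusp10 and Dusp16 encode phosphatases, also called MKP-5 and MKP-7, that act mainly on JNK and p38. Dusp16 had 22.4, 17.6 and 36.9 CPM in LPS microglia, against 10.9, 11.9 and 9.31 CPM in H2O microglia, with no overlap (log2 change 1.26 ± 0.29, adjusted p = 0.0238). It had 21.8, 20.9 and 14 CPM in ENV microglia, against 16.8, 16.3 and 5 CPM in buffer microglia, higher in each of 3 pairs but with overlapping groups (0.57 ± 0.44, adjusted p = 0.354). The third replicate was the lowest of both groups in the ENV set. The LPS call was lost without any 1 of the H2O libraries, with adjusted p-values of 0.0735 to 0.0861.

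In ENV astrocytes Dusp16 had 40.2, 29.6, 38.6 and 45 CPM, against 25.8, 26.1, 22.2 and 20.7 CPM in buffer astrocytes (log2 change 0.69 ± 0.14, adjusted p = 0.0133). In LPS astrocytes it had 29.6, 26.7, 37.5 and 43.3 CPM, against 21.2, 24.6, 25.5 and 19.5 CPM in H2O astrocytes (0.59 ± 0.18, adjusted p = 0.0969). Neither set of libraries overlapped, and the fourth pair held the widest gap in both, at 2.18 times with ENV and 2.22 times with LPS. The LPS change was called by DESeq2 (adjusted p = 0.0234) and in a fit of all 4 astrocyte groups (adjusted p = 0.0338). The ENV call was lost without the third buffer replicate (adjusted p = 0.0518).

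Dusp10 was called in no treated comparison. ENV astrocytes had 5.15, 4, 3.08 and 3.01 CPM, against 1.54, 2.02, 2.19 and 2.76 CPM in buffer astrocytes. These groups did not overlap, and the change of 0.84 ± 0.27 had an adjusted p of 0.0624, against 0.02 by DESeq2 and 0.0496 without the fourth buffer replicate. In LPS astrocytes Dusp10 had 3.54 to 5.44 CPM, against 1.28 to 4.01 CPM in H2O astrocytes, higher in each of 4 pairs (0.74, adjusted p = 0.273). In microglia it had 0.988 to 1.35 CPM with ENV against 0.816 to 1.07 CPM with buffer, and 1.25 to 2.17 CPM with LPS against 0.924 to 1.06 CPM with H2O, where the LPS and H2O libraries did not overlap (0.72, adjusted p = 0.172).

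Spry2 encodes a Sprouty protein that restrains growth factor signalling to ERK. ENV microglia had 10.2, 14 and 11.9 CPM, against 44.8, 42.5 and 30.2 CPM in buffer microglia. LPS microglia had 3.37, 2.61 and 10.2 CPM, against 28.9, 26.2 and 30.9 CPM in H2O microglia. Every treated library lay below every vehicle library, and the third LPS replicate was the highest of its group. The log2 change was -1.70 ± 0.20 with ENV (adjusted p = 0.00133) and -2.41 ± 0.53 with LPS (adjusted p = 0.0204). The LPS change was -3.21 without the third replicates (adjusted p = 0.00077), and its call was lost when any 1 library but the third LPS replicate was left out, with adjusted p-values of 0.0515 to 0.0693.

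In astrocytes Spry2 was abundant and not called. ENV astrocytes had 60.8, 57.3, 66.9 and 124 CPM, against 43.2, 45.5, 66.6 and 145 CPM in buffer astrocytes (log2 change 0.04 ± 0.43, adjusted p = 0.965). LPS astrocytes had 99.1, 91.7, 69.9 and 135 CPM, against 56.9, 48.1, 65.2 and 141 CPM in H2O astrocytes (0.35, adjusted p = 0.655). The fourth replicate was the highest in each of the 4 groups. As for Dusp5 and Dusp6, LPS over H2O was above 1 in the first and second pairs, at 1.74 and 1.91, and 1.07 and 0.955 in the other pairs.

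Spred1 encodes a Sprouty-related protein that recruits neurofibromin to silence RAS. ENV microglia had 65.3, 65.4 and 66.7 CPM, against 104, 108 and 83.4 CPM in buffer microglia. LPS microglia had 63.2, 63.8 and 62.9 CPM, against 103, 77.2 and 99.7 CPM in H2O microglia. The treated libraries were nearly equal to each other and all below the vehicle ones, which varied more. The changes were -0.58 ± 0.13 with ENV (adjusted p = 0.0138) and -0.56 ± 0.14 with LPS (adjusted p = 0.0295). The ENV call was lost without any ENV replicate or the second buffer replicate (adjusted p = 0.0503 to 0.0536), and the LPS call without the first or second LPS replicate or the first or the third H2O replicate (adjusted p = 0.073 to 0.107), and without the third replicates of both groups (adjusted p = 0.0687). In astrocytes Spred1 had 76.1 to 93 CPM with ENV against 79.5 to 125 CPM with buffer (-0.10, adjusted p = 0.701), and 80.2 to 117 CPM with LPS against 79.1 to 121 CPM with H2O (0.02, adjusted p = 0.969).

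Spry1 encodes the Sprouty protein best known for limiting signalling of the GDNF receptor Ret during kidney development in mice. ENV astrocytes had 1.09, 1.48, 1.52 and 2.02 CPM, against 4.04, 3.17, 4.3 and 7.44 CPM in buffer astrocytes, with no overlap (log2 change -1.63 ± 0.32, adjusted p = 0.0110). LPS astrocytes had 0.871, 4.08, 2.44 and 1.67 CPM, against 2.79, 4.18, 5.11 and 5.87 CPM in H2O astrocytes, lower in each of 4 pairs but with overlapping groups (-0.98, adjusted p = 0.273). Summed markers of fibroblasts and mural cells, all 14 of which were detected, were 2180, 3750, 3570 and 1880 CPM in ENV astrocytes against 8650, 12400, 11100 and 2970 CPM in buffer astrocytes, and 2100, 2600, 3990 and 2220 CPM in LPS astrocytes against 3840, 6620, 11100 and 3140 CPM in H2O astrocytes. They were lower in every treated library than in its pair, with 3 of 12 tested markers called lower with ENV and 0 of 11 with LPS. Their part in the Spry1 values was not tested.

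In microglia Spry1 had 1.3, 2.42 and 1.98 CPM with ENV, against 3.35, 3.39 and 2.55 CPM with buffer, with no overlap but without a call (log2 change -0.70 ± 0.30, adjusted p = 0.118). With LPS it had 0.234, 0.112 and 0.843 CPM, against 0.834, 0.748 and 2.55 CPM with H2O. The third replicate was the highest in both groups, and the groups overlapped. The change of -1.79 ± 0.88 was not called (adjusted p = 0.170), whereas with the replicate number as a block it was -1.95 and called (adjusted p = 0.0275), as it was without the third replicates (-2.18, adjusted p = 0.0291) or the third LPS replicate alone (-2.97, adjusted p = 0.0434). Summed markers of the oligodendrocyte lineage were also highest in the third replicate of both groups, at 6.06, 6.24 and 39.3 CPM in LPS microglia against 15.5, 15.6 and 157 CPM in H2O microglia. They were 95, 183 and 171 CPM in ENV microglia against 320, 324 and 298 CPM in buffer microglia, where the third replicate was not the highest. Of these 15 markers, Mog and Mobp were at 0 with ENV and none with buffer, and Mog, Opalin and Ermn were at 0 with LPS and Mag, Opalin and Ermn with H2O. Neuronal markers were likewise highest in the third replicates of LPS and H2O microglia. The part of either in the Spry1 values was not tested.

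**Figure D2:**
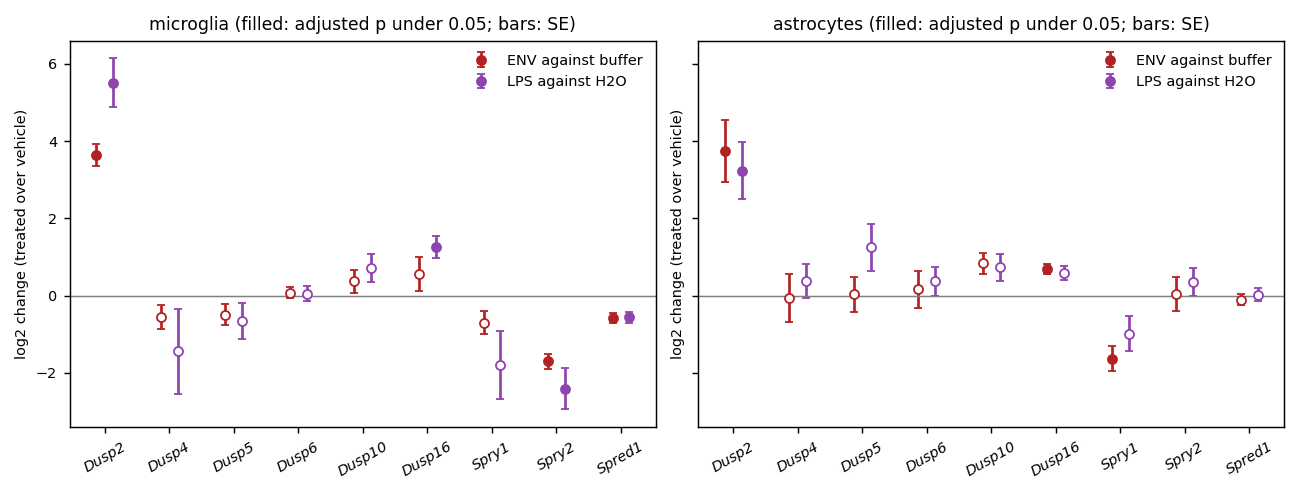
Log2 change of each gene (y axis, treated over vehicle, points with standard error bars) in microglia and astrocytes for ENV and LPS, with filled points where the adjusted p was under 0.05. Dusp2 lies above 3 in all 4 comparisons, and Spry2 lies at -1.70 and -2.41 in microglia but at 0.04 and 0.35 in astrocytes.

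Whether the cell types responded differently was tested directly as a difference of responses. Spry2 with LPS was the 1 gene of 9 called, with a microglial minus astrocyte difference of -2.75 ± 0.69 (adjusted p = 0.0235), where 12.5% of 13284 genes were called, 5.32% higher and 7.14% lower. The difference was called with the replicate block (-3.11, adjusted p = 0.00424) and without the third LPS replicate of microglia (-3.67, adjusted p = 0.0023), and not without the first LPS replicate of microglia (-2.48, adjusted p = 0.0524). The block also called Dusp4, at -2.26 (adjusted p = 0.0477), against -1.81 without it (adjusted p = 0.350) and -3.98 without the third LPS replicate of microglia (adjusted p = 0.0321). These Dusp4 values rest on 1 and 2 counts in the first and second LPS libraries of microglia, and carry little weight. For ENV none of the 9 genes was called, where 14.9% of 13378 genes were, 6.87% higher and 8.07% lower. At an unadjusted p under 0.05 there were 2, Spry2 and Spred1, and DESeq2 called 1. Spry2 was close, at -1.75 ± 0.56 (adjusted p = 0.0547), and was called with the block (-1.85, adjusted p = 0.000886) and without the fourth buffer replicate of astrocytes (-2.28, adjusted p = 0.00382), as was Spred1 (-0.65, adjusted p = 0.0141). Dusp2 had differences of -0.07 ± 0.58 with ENV and 2.29 ± 1.04 with LPS (adjusted p = 0.966 and 0.176). With 0 to 10 counts per vehicle astrocyte library, both are poorly fixed. Leaving out 1 library moved the ENV value between -0.86 and 0.89. DESeq2 called the LPS difference of Dusp2 (2.29, adjusted p = 0.0498). Spry1, called with ENV in astrocytes, had a difference of 0.92 ± 0.46 with ENV (adjusted p = 0.199). Cell type could not be told apart from the isolation and the gene table that went with it.

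**Figure D3:**
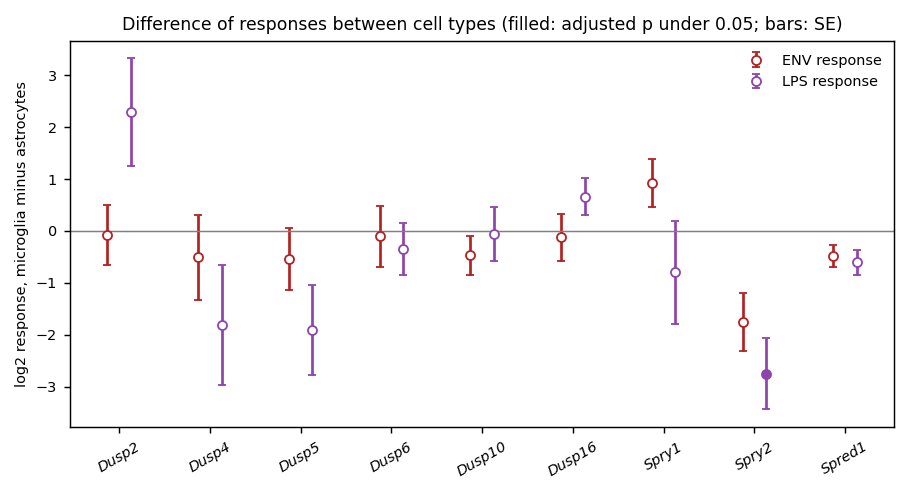
Difference of the log2 response between cell types (y axis, microglia minus astrocytes, with standard error bars) for each gene, for ENV and LPS, filled where the adjusted p was under 0.05. Spry2 under LPS, at -2.75, is the filled point, and Spry2 under ENV lies at -1.75.

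Whether ENV and LPS acted differently was tested in the same way within each cell type. None of the 9 genes was called in microglia, where 0 of 13270 genes were called by edgeR, 937 had an unadjusted p under 0.05 and DESeq2 called 67. Dusp2 came nearest, with an ENV minus LPS difference of -1.85 ± 0.66 (adjusted p = 0.689), and Spry2 had 0.72 ± 0.60. In astrocytes none of the 9 was called either, of 15496 genes with 0 called by edgeR, 76 at an unadjusted p under 0.05 and 0 called by DESeq2. Dusp5 had the widest difference there, -1.22 ± 0.79. Standard errors of 0.18 to 1.20 on the log2 scale set the size of difference that these tests could resolve.

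The vehicles were compared with each other because each agent had its own. Between buffer and H2O microglia none of the 9 genes was called, with 0 of 12900 genes called by edgeR, 1946 at an unadjusted p under 0.05 and 679 called by DESeq2. Without the third H2O replicate edgeR called 1650 genes, so the count rests on 1 library. Dusp5 was 0.76 lower on the log2 scale in buffer than in H2O microglia (log2 change -0.76 ± 0.25, adjusted p = 0.298). Spry1 was 3.1 ± 0.473 CPM in buffer and 1.38 ± 1.01 CPM in H2O microglia (SD, n = 3 each), with a change of 1.00 that was called only without the third H2O replicate (1.78, adjusted p = 0.0157). Between buffer and H2O astrocytes none of 8 tested genes was called, of 14876 genes with 0 called by edgeR, 125 at an unadjusted p under 0.05 and 0 by DESeq2, and Dusp2 was under the filter.

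Levels at rest differed between the cell types for 4 of the 9 genes, where 79.6% of 13308 genes were called, 37.7% higher in microglia and 41.9% lower. Dusp2, Dusp6 and Spred1 were higher in vehicle microglia and Dusp10 was lower. Dusp2 averaged 2.8 ± 0.328 and 2.2 ± 0.909 CPM in buffer and H2O microglia, against 0.124 ± 0.103 and 0.108 ± 0.141 CPM in buffer and H2O astrocytes (fitted log2 change 4.90 ± 0.52, adjusted p = 1.84e-06). It passed the filter through its microglial libraries, and with 0 to 10 counts per vehicle astrocyte library the size of this change is poorly fixed. Dusp6 averaged 100 ± 14.9 and 105 ± 20.4 CPM in these microglia, against 32.7 ± 18.6 and 35.3 ± 18.6 CPM in these astrocytes (2.17 ± 0.30, adjusted p = 2.45e-05). Dusp10 averaged 0.908 ± 0.139 and 0.985 ± 0.0685 CPM, against 2.13 ± 0.502 and 2.72 ± 1.14 CPM (-0.77 ± 0.25, adjusted p = 0.0120). Spred1 (0.57 ± 0.13, adjusted p = 0.00138) depended on the scaling, with 0.13 (adjusted p = 0.419) when library totals alone were used. That scaling also called Dusp16, Spry1 and Spry2 lower in microglia (-0.84, -1.01 and -1.06, adjusted p = 0.00321, 0.0136 and 0.0106), as did DESeq2 (-0.49, -0.66 and -0.69, adjusted p = 0.0438, 0.0481 and 0.04). Spry1, at -0.58, was called without the third H2O replicate of microglia (-0.98, adjusted p = 0.00346), and the Dusp2 change was 5.60 without the first H2O replicate of astrocytes. CPM were scaled separately in each cell type and agent set, so mean CPM set side by side across cell types, or across the ENV and LPS sets of 1 cell type, are not on the scale of the fitted changes.

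Ordered over all 8 groups by mean CPM, which were scaled within each cell type and agent set and not across them, the genes fell into different patterns. Dusp2 ran from 100 ± 68.6 CPM in LPS microglia and 35.1 ± 12.2 CPM in ENV microglia, groups that did not overlap, through microglia with either vehicle and the treated astrocytes, whose neighbours overlapped, to the vehicle astrocytes, which stood below them without overlap. Dusp6 was higher in each microglial group than in any astrocyte group, with a gap between buffer microglia at 83.2 CPM or more and all astrocytes at 66.1 CPM or less. Dusp16 was led by ENV astrocytes (38.4 ± 6.44 CPM) and LPS astrocytes (34.3 ± 7.55 CPM), and ended with H2O microglia (10.7 ± 1.3 CPM), with every neighbour overlapping. Spry2 was led by the 4 astrocyte groups, which overlapped, and ended with ENV microglia (12 ± 1.92 CPM) and LPS microglia (5.4 ± 4.18 CPM), which overlapped each other and lay apart from vehicle microglia. Spred1 spanned the narrowest range, 1.59 times between the means of LPS astrocytes and LPS microglia, and both treated microglial groups lay apart from all others.

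Related genes of the pathway were counted in 7 lists, beside the shares of called genes given above for all genes. Counts under another fit have another background. With the replicate block 5036, 3707, 4348 and 2611 genes in all were called for ENV and LPS in microglia and ENV and LPS in astrocytes, against 3972, 3647, 2670 and 785 without it. With 1 library left out, 2466 to 5282, 1351 to 3986, 1487 to 2869 and 236 to 681 were called. Of the other MAPK phosphatases, Dusp7, a cytoplasmic ERK phosphatase, fell in ENV microglia (44.4 ± 3.62 against 71 ± 3.86 CPM in buffer, log2 change -0.68 ± 0.11, adjusted p = 0.00481) and in LPS microglia (-0.44 ± 0.11, adjusted p = 0.0252). In ENV astrocytes Dusp7 rose (102 ± 21.1 against 52.8 ± 16.9 CPM in buffer, 0.95 ± 0.23, adjusted p = 0.0244). It was 1 of 2 genes tested in each of these comparisons, and neither of 2 was called in LPS astrocytes, against 1 with the block. The Dusp7 calls in LPS microglia and ENV astrocytes were each lost without any 1 of 5 libraries. Of the other Sprouty and Spred genes, Spred3 rose in ENV microglia (19.9 ± 2.15 against 8.07 ± 0.913 CPM in buffer, 1.30 ± 0.16, adjusted p = 0.00149) and LPS microglia (22.6 ± 6.86 against 7.4 ± 0.754 CPM in H2O, 1.61 ± 0.25, adjusted p = 0.00715), opposite in sign to Spry2 and Spred1. It was 1 of 4 and 1 of 3 tested, and in astrocytes 0 of 4 were called with ENV and 0 of 3 with LPS, against 3 and 1 with the replicate block.

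Atypical dual-specificity phosphatases and slingshot genes had 1 higher and 2 lower of 13 in ENV microglia, 1 higher and 4 lower of 12 in LPS microglia, 1 lower of 13 in ENV astrocytes and 0 of 13 in LPS astrocytes. Dusp3, the small phosphatase VHR, fell in ENV microglia (101 ± 15.9 against 244 ± 52.2 CPM in buffer, log2 change -1.27 ± 0.19) and LPS microglia (68.1 ± 31.1 against 237 ± 7.34 CPM in H2O, -1.80 ± 0.34). In ENV astrocytes Dusp3 fell by less, -0.45 ± 0.13. Dusp22, also called JSP-1, fell to 16.6 ± 1.19 CPM in ENV microglia, against 33.3 ± 1.72 CPM in buffer microglia, and to 12.6 ± 2.18 CPM in LPS microglia, against 38.3 ± 2.26 CPM in H2O microglia. The slingshot genes, whose products act on cofilin, went both ways in LPS microglia, with Ssh2 lower (-1.05 ± 0.17) and Ssh3 higher (0.62 ± 0.15), and Ssh3 was also higher in ENV microglia (0.69 ± 0.14). With the block 6 genes of this list were called in ENV astrocytes and 2 in LPS astrocytes. In LPS microglia 2 were called without the first or second H2O replicate or the second LPS replicate, and 3 without the first LPS replicate.

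Other feedback genes on receptors and MAPK signalling had 9 higher and 1 lower of 25 in ENV microglia and 8 higher and 2 lower of 24 in LPS microglia, with list medians of 0.14 and 0.21 against -0.03 and -0.02 over all genes. Socs3, a suppressor of cytokine receptors, rose most, to 128 ± 21.2 CPM in ENV microglia against 3.69 ± 1.03 CPM in buffer microglia (5.11 ± 0.25, adjusted p = 0.00012), and to 269 ± 194 CPM in LPS microglia against 2.27 ± 0.877 CPM in H2O microglia (6.89 ± 0.69, adjusted p = 0.00225). Gadd45b, whose product binds the JNK kinase MKK7, rose in ENV microglia (1.64 ± 0.29) and LPS microglia (2.33 ± 0.24). In LPS microglia 5 genes of the list were called without the first H2O replicate and 6 without the second. Gadd45g rose in ENV microglia (1.43 ± 0.24), and Ptpn7, a tyrosine phosphatase of ERK and p38 in blood cells, in LPS microglia (1.43 ± 0.15). Tnip1, a partner of the NF-kB inhibitor A20, rose in all 4 comparisons, by 1.69 ± 0.15 and 1.66 ± 0.24 in microglia with ENV and LPS and by 2.57 ± 0.24 and 2.16 ± 0.42 in astrocytes with ENV and LPS.

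In astrocytes this list had 5 higher and 3 lower of 26 with ENV and 3 higher and 1 lower of 25 with LPS, or 7 called with LPS under the block. Lrig1, which promotes loss of ErbB receptors, rose with ENV (327 ± 80.3 against 130 ± 34.7 CPM in buffer, 1.33 ± 0.23) and LPS (1.15 ± 0.25). Pea15, an abundant astrocyte protein that holds ERK in the cytoplasm, fell with ENV (1270 ± 373 against 3440 ± 793 CPM in buffer, -1.43 ± 0.26) and with LPS (1390 ± 301 against 2980 ± 603 CPM in H2O, -1.10 ± 0.22). As given above, of 16 astrocyte markers 1 was called higher and 6 lower with ENV, and of 15 none was called with LPS. Their part in the Pea15 values was not tested. Socs1 rose with ENV (1.55 ± 0.37). With ENV 4 were called without the first or second buffer replicate, and with LPS 0 were called without the first or the third H2O replicate or the third LPS replicate.

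Among the kinases of the cascades, 9 were higher and 6 lower of 37 in ENV microglia, 9 higher and 8 lower of 35 in LPS microglia, 5 higher and 1 lower of 36 in ENV astrocytes and 2 higher and 1 lower of 36 in LPS astrocytes. Map3k8, the kinase TPL2 that links TLR4 to ERK in macrophages, rose in ENV microglia (97 ± 4.02 against 26.4 ± 2.46 CPM in buffer, 1.88 ± 0.12), LPS microglia (129 ± 55.5 against 29.8 ± 11.2 CPM in H2O, 2.12 ± 0.40) and ENV astrocytes (37.7 ± 24.1 against 4.63 ± 2.14 CPM in buffer, 3.02 ± 0.60). Mapkapk2, the kinase MK2 downstream of p38, rose in the same 3 comparisons, by 0.94 ± 0.12, 1.23 ± 0.15 and 1.18 ± 0.24. The p38 gene Mapk14 rose in ENV microglia (0.97 ± 0.12), while Map3k20 fell there (-1.17 ± 0.19), and Map3k5 and Rps6ka5 fell in LPS microglia (-1.76 ± 0.34 and -1.27 ± 0.25). In astrocytes the MAPK kinases Map2k4 and Map2k1 rose with ENV (0.95 ± 0.11 and 0.58 ± 0.11) and LPS (0.80 ± 0.15 and 0.54 ± 0.11), and Map3k14 fell with LPS (-0.47 ± 0.10). In astrocytes 11 kinases with ENV and 8 with LPS were called under the block, and 0 with LPS without any 1 of the H2O libraries. In microglia 9 were called with ENV without the first ENV replicate, and 5 with LPS without the first H2O replicate.

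**Figure D4:**
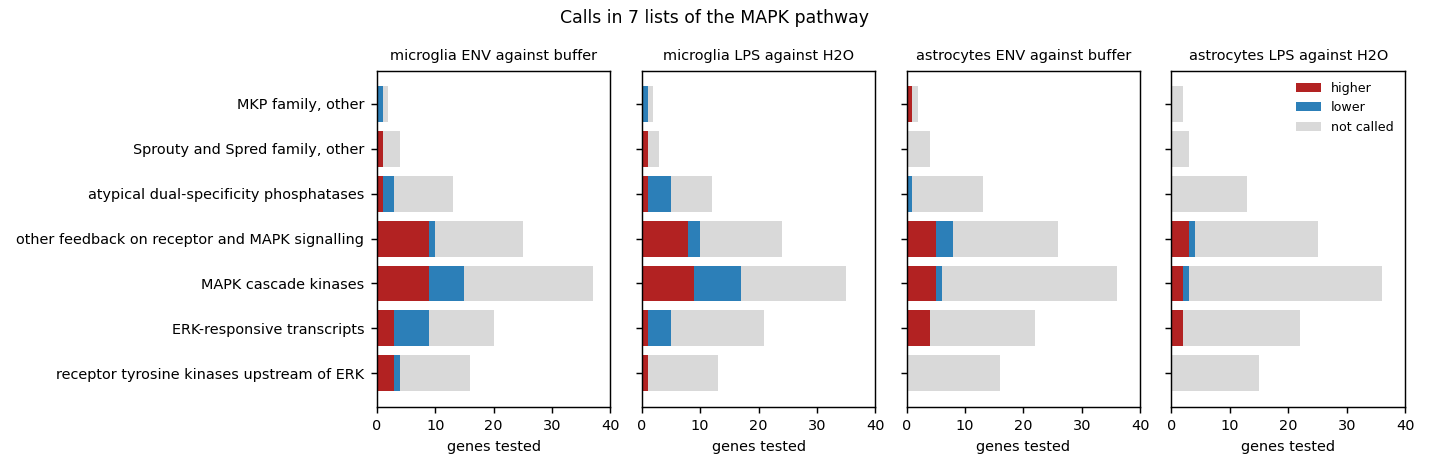
Genes of 7 lists called higher, called lower or not called (x axis, number of genes tested, stacked bars from 0) in each of the 4 treated comparisons. Kinases of the cascades, the longest list, hold the most calls in microglia, 15 of 37 with ENV and 17 of 35 with LPS. Over all genes 30.9% and 29.8% were called there. Receptor tyrosine kinases and the other Sprouty and Spred genes hold none in astrocytes.

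Transcripts known to follow ERK activity had more lower than higher calls in microglia and few calls, all higher, in astrocytes. In ENV microglia 3 were higher and 6 lower of 20, and in LPS microglia 1 higher and 4 lower of 21, with list medians of -0.34 and -0.56. Over all genes 30.9% and 29.8% were called there, 16.2% and 16.0% higher and 14.7% and 13.8% lower, with medians of -0.03 and -0.02. In astrocytes 4 were higher and none lower of 22 with ENV, and 2 higher and none lower of 22 with LPS, where 17.9% and 5.34% of all genes were called and the list medians were -0.02 and 0.18. In LPS microglia and in astrocytes the counts lay near the shares over all genes and do not set the list apart. The count of 9 in ENV microglia moved between 6 and 12 under the alternatives, whose backgrounds also differ. It does not set the list apart either. The immediate early gene Egr1 fell in ENV microglia (13.1 ± 5.23 against 42.5 ± 8.64 CPM in buffer, -1.70 ± 0.30, adjusted p = 0.0067) and LPS microglia (11.3 ± 1.41 against 49.2 ± 11.2 CPM in H2O, -2.12 ± 0.20, adjusted p = 0.00198), and Egr2 and Egr3 fell with LPS (-3.28 ± 0.42 and -3.08 ± 0.50). Emp1 fell with both agents (-2.51 ± 0.48 and -2.37 ± 0.44) and Myc with ENV (-1.41 ± 0.25), whereas Fos rose with ENV (1.32 ± 0.19). In astrocytes the AP-1 subunit Fosl2 rose with ENV (102 ± 18.7 against 35 ± 8.44 CPM in buffer, 1.55 ± 0.20) and LPS (97.3 ± 18.3 against 35.1 ± 6.91 CPM in H2O, 1.47 ± 0.19), as did Ier3 (1.43 ± 0.19 and 1.11 ± 0.20), and Maff and Myc rose with ENV (1.75 ± 0.38 and 0.53 ± 0.16). Without the third replicates 8 were called in LPS microglia, and 2 were called in ENV astrocytes without the first or the third buffer replicate. The difference between cell types was not tested for the list.

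Receptor tyrosine kinases upstream of ERK had 3 higher and 1 lower of 16 in ENV microglia and 1 higher of 13 in LPS microglia. Mertk, a receptor for apoptotic cells, rose in ENV microglia (278 ± 77.7 against 124 ± 18.2 CPM in buffer, log2 change 1.17 ± 0.22). Pdgfra, also a marker of oligodendrocyte precursors, fell there (-1.16 ± 0.35), and Erbb3 rose in LPS microglia (0.93 ± 0.18). In astrocytes 0 of 16 were called with ENV and 0 of 15 with LPS, against 6 and 4 with the block. In LPS microglia 4 were called with the block and 0 without the first or second replicate of either group, and in ENV microglia 2 without the first ENV replicate.

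The genes most like the feedback genes were found by the distance between their 4 log2 changes, over 9464 other genes tested in all 4 treated comparisons, as a description with no test. Dusp2 was nearest to Herc6, an interferon-stimulated gene, at a distance of 0.39, with changes of 3.66 and 5.19 in microglia with ENV and LPS and 3.51 and 3.18 in astrocytes with ENV and LPS. Ass1, which makes argininosuccinate, and Phf11 followed, at 0.76 and 0.77. The astrocyte changes of Dusp2 that enter these distances had standard errors of 0.81 with ENV and 0.74 with LPS. The order of its neighbours is therefore poorly fixed. Spry2 was nearest to Mis18a, Ercc6l and Kif24, at 0.14, 0.22 and 0.27, genes with roles in chromosome segregation or at the centriole. Spry1 was nearest to Flnc, at 0.26, which encodes an actin crosslinker. Dusp6 and Spred1 had very near neighbours, E2f3 and Tfdp1, both at 0.07.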

How the data were processed

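Messenger RNA of cultured rat microglia and astrocytes was sequenced in 28 libraries. The deposited files hold raw counts, whole numbers per gene symbol, and the submitters' processing notes name HISAT2, StringTie 1.3.3b and mRatBN7.2. The settings, annotation release and strand handling are not stated there, so overlapping genes cannot be separated. Reads carry no molecular identifiers, so floors cover counting error only.

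Groups were compared with the edgeR 4.0.16 quasi-likelihood F test (2-sided, TMM scaling, filterByExpr with a minimum count of 10, robust fit; limma 3.58.1, R 4.3.3), adjusted by the Benjamini-Hochberg method over all genes tested and called at an adjusted p under 0.05. Differences between responses were tested as contrasts of 4 group means. CPM were scaled within each cell type and agent set, and genes were joined across tables by symbol. DESeq2 1.42.0, other scalings, no filter, a joint fit, a replicate block and leaving out libraries were alternatives. Statistics were tested on simulated counts drawn independently for each library. These held no deviation shared by libraries of the same number, so the unblocked tests were not checked for it.

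Replicate numbers come from the sample titles. Libraries of the same number deviated together in every pair: r across genes was 0.33 to 0.51 for microglia with ENV and buffer, 0.35 to 0.40 for microglia with LPS and H2O, 0.27 to 0.62 for astrocytes with ENV and buffer and 0.58 to 0.69 for astrocytes with LPS and H2O. Libraries of different numbers reached 0.12, 0.14, 0.17 and 0.61 in these sets, so in astrocytes with LPS and H2O the numbers stood apart less clearly, with 3 of 4 libraries matching their own number best. Since every same-number r was above 0.1, the numbers were taken to pair the libraries in the replicate block, and blocked values are given where they change a call. The main tests held no block, because the labels do not say what a replicate number shares. Their p-values and standard errors therefore leave this pairing out. No source used says that replicates came from separate animals, so p-values reflect library-to-library spread that could be technical.

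The genes described and the pathway lists were chosen with earlier results of these data known. All 9 genes with counts are given. From each list, up to 4 called genes per comparison were named by largest absolute log2 change, at 10 CPM or more in the higher group. Promoter sequences are those of RefSeq (GRCr8), of which 8 of the 9 genes had an entry.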

Additional observations from a re-analysis of the deposited data

Results flagged for a closer look

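Among 36 sets of 4 libraries (9 genes in 4 astrocyte groups), 3 held a library far from the other three in its group, where chance alone flags about 1 in 20. Dusp2 was 4.41 CPM in the first ENV replicate of astrocytes, against 0.788 to 1.06 CPM in the others. Spry2 was 124 CPM in the fourth ENV replicate of astrocytes, against 57.3 to 66.9 CPM in the others. Spred1 was 125 CPM in the fourth buffer replicate of astrocytes, against 79.5 to 86.5 CPM in the others. Spry2 also differed between cell types in its response to LPS, with a microglial minus astrocyte log2 difference of -2.75 ± 0.69 (edgeR, adjusted p = 0.0235), lower in LPS than in H2O in 3 of 3 microglial pairs and higher in 3 of 4 astrocyte pairs.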

How the results depend on the processing

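Of 1561 member values under the alternatives, 1382 kept their direction and side of the threshold, 29 lost a call, 29 gained one, none that was called changed sign, and 121 uncalled values changed sign. Leaving out 1 library moved the number of genes called between 2 and 3 for ENV in microglia, 1 and 7 for LPS in microglia, 1 and 4 for ENV in astrocytes, 0 and 1 for LPS in astrocytes, 0 and 2 for each difference between cell types, 0 and 1 for buffer against H2O in microglia and 4 and 5 between vehicle microglia and vehicle astrocytes, and left it at 0 for both differences between agents and for the astrocyte vehicles. For LPS in microglia, 7 were called without the third LPS replicate and 1 without the first H2O replicate, where 3986 and 1351 genes in all were called against 3647 with all libraries; for ENV in astrocytes, 1 without the third buffer replicate, with 1487 genes in all against 2670. For LPS in astrocytes, 0 were called with no filter on low counts, 2 by DESeq2 and 2 in the joint fit. For the ENV difference between cell types, library totals alone, DESeq2 and the replicate block each called 1, and for the LPS difference each called 2. Without the third replicates of LPS and H2O microglia, chosen after seeing the data, 1 was called between the microglial vehicles, and DESeq2 called 7 between vehicle microglia and vehicle astrocytes. The causes were not tested.

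The replicate block changed no other call of the 9 genes than those given (Spry1 with LPS in microglia, -1.95, adjusted p = 0.0275 in edgeR, Spry2 with ENV and Dusp4 with LPS between cell types). No paired analysis was possible because replicate numbers do not link microglia with astrocytes for the comparison of their vehicles. Library totals alone moved the median over all genes to -0.23 with ENV and -0.33 with LPS in microglia, where 31.5% and 25.9% of called genes were then higher, against 52.5% and 53.7% with TMM. The share was 25.9% for the ENV difference between cell types (46% with TMM, 54.1% with DESeq2 size factors), 19.8% for the LPS difference (42.7% and 54.6%, with medians of -0.38 against -0.12) and 30.4% between vehicles of the cell types (47.3% with TMM, medians of -0.50 and -0.07). Between microglial vehicles the median was 0.12. Depth limits Dusp2 in vehicle astrocytes and Dusp4 in LPS microglia, where libraries held as few as 0 and 1 counts.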
